A study of Mus musculus with 4 samples.

Results

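Adrenomedullin and the calcitonin gene-related peptide (CGRP) act on endothelial cells (ECs) through one shared receptor core, and 5 genes of this system were followed in single ECs of the mouse ear dermis. The genes were chosen by name, as the receptor, its 3 accessory proteins and 1 ligand, and they are 5 of the 46517 gene identifiers counted. *Calcrl* encodes the calcitonin receptor-like receptor, a G protein-coupled receptor that needs a receptor activity-modifying protein (RAMP) to reach the cell surface. With *Ramp1* it forms the CGRP receptor, and with *Ramp2* or *Ramp3* it forms adrenomedullin receptors. *Adm* encodes the precursor of adrenomedullin, a secreted peptide that relaxes vessels, tightens the endothelial barrier through cAMP and Rap1, and is required, with *Calcrl* and *Ramp2*, for normal blood and lymphatic vessel development. *Adm* is also a well-known target of the hypoxia-inducible factors.

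The cells came from ears of adult female C57Bl/6 mice aged 12 to 26 weeks, carried no transgene and received no treatment. The age and strain are those of the labels, and the study's methods give a younger range and the substrain C57BL/6 J. The cells were dissociated with collagenase and sorted as CD31+/CD45-/Lyve1- cells, a gate meant for blood vascular ECs (BECs), and each cell was sequenced in its own well by Smart-seq2. There were 2 replicates of 2 plates (A and B) with 384 wells each, 1536 wells in all. Replicates are described as a pool of 6 mice, and whether each replicate was its own pool was not settled, so the spread between replicates may be partly technical.

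Levels are given as counts scaled to library size (CPM, the share of gene reads times 1e6) of wells summed within a class and replicate. Wells were kept as endothelial where at least 2 of *Pecam1*, *Cdh5* and *Kdr* had a read and *Ptprc*, *Pdgfrb* and *Kcnj8* each stayed under 100 CPM. This left 351 wells of replicate 1 and 508 of replicate 2, with medians of 142252 and 74537 reads. After clustering without the 5 genes or their pathway, 15 wells of the blood clusters, all of replicate 2, were set aside for 100 CPM or more of *Lyve1* or *Prox1*. This left 45 and 130 artery-like wells (replicate 1 and replicate 2), 137 and 18 capillary-like wells, 107 and 94 vein-like wells and 19 and 111 lymphatic-like wells. All 10 lymphatic markers were higher in the lymphatic-like cluster in both replicates, among them *Lyve1* and *Prox1*, although the sort had excluded cells with surface Lyve1. In the vein-like cluster 9 of 12 markers were higher, led by *Sele* and *Selp*, and in the capillary-like cluster 9 of 12, with *Rgcc* and *Cd36* among its leading genes. The artery-like cluster rested on 6 of 12 markers (*Gja4*, *Sema3g*, *Hey1*, *Sox17*, *Bmx* and *Jag1*). Artery markers summed to 2958 and 2047 CPM in its wells (replicate 1 and replicate 2). Vein markers summed to 1892 and 3891 CPM there, so in replicate 2 they exceeded the artery markers. *Selp* had 17.1 and 440 CPM in artery-like wells, against 710 and 758 CPM in vein-like wells. No artery marker was among the 10 leading genes of the artery-like cluster. By marker scores alone only 16 of its 45 wells and 27 of its 130 wells were artery-like, so it is a broad class. By the same scores only 42 of 107 and 19 of 94 wells of the vein-like cluster were vein-like, so that class is broad too. For the capillary-like cluster these were 82 of 137 and 12 of 18 wells, and for the lymphatic-like cluster 18 of 19 and 106 of 111. A further cluster, of 43 and 140 wells, took the name keratinocyte by the marker rule, with *Krt5* first among its leading genes. It is called the unnamed cluster here and stayed out of the comparisons, but its wells are part of values over all kept wells. All 5 keratinocyte markers and 8 of 11 mural markers were higher in it, with mural markers summing to 2017 and 2198 CPM and fibroblast markers to 299 and 2642 CPM. Wells of another cell type served as a reference: 8 and 38 mural reference wells had 300 CPM or more of *Pdgfrb* or *Kcnj8* and under 100 CPM of *Pecam1*, with medians of 197462 and 170239 reads.

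The 2 replicates differed in how many wells had any read of the mural genes used in the filter. Of the wells within the limits on reads and genes, 764 of 765 in replicate 1 but 302 of 756 in replicate 2 had a read of the mural genes *Pdgfrb* or *Kcnj8*. Shares of wells are therefore given beside the mural reference, as wells with at least 1 read at 20000 reads per well and as wells with 10 or more of all reads. The first still counts single reads, and the second limit was chosen after the counts were seen. Dissociation-induced genes summed to 44914 and 41195 CPM in vein-like wells and to between 13823 and 22433 CPM in the other 3 classes. Their part in the results was not tested.

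The start region of *Adm* is shown because *Adm* is the member whose level differed between classes, and that of *Calcrl* because it is the receptor core and showed no called difference. Both are the 250 bases before the RefSeq start in GRCm38.p6, in the direction of transcription, with capitals for matches to 4 motifs searched on both strands: the core of the hypoxia-inducible factor motif, spelled ACGTG, the motif of ETS factors, spelled CCGGAA, the GC box that Sp1 binds, spelled GGGCGG, and the box bound by the TATA-binding protein, spelled TATAAA.
Adm, chr7:110627407-110627656, plus strand: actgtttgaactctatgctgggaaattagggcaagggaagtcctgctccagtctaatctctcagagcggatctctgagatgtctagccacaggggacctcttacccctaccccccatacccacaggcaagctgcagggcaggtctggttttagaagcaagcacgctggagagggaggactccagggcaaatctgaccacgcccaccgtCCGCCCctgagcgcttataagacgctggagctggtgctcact
Calcrl, chr2:84425267-84425516, minus strand: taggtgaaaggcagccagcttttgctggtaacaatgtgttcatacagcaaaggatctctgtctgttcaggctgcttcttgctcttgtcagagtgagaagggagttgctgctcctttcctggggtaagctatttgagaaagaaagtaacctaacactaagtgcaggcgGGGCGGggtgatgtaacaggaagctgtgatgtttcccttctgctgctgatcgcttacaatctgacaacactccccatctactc
Each window held 1 GC box, which starts 42 bases before the RefSeq start of *Adm* and 83 bases before that of *Calcrl*. The annotation used here for gene positions places the start of *Calcrl* at 84425411, inside the window. By that annotation the *Calcrl* box lies within the gene. Of 32851 promoter windows of the same length, 32.7% held a GC box, 16.6% the ACGTG motif, 12.0% the CCGGAA motif and 12.4% the TATAAA motif, and those last 3 motifs had no match in either window. The *Ramp1* and *Ramp3* windows were also searched. The *Ramp1* window had no match to any of the 4 motifs. The *Ramp3* window had 3 GC boxes and 1 CCGGAA match. *Ramp2* was not in the promoter set.

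*Adm* was far higher in lymphatic-like wells than in each blood class, in both replicates. The gene has 4 exon blocks at chr7:110627661-110629820 (ENSMUSG00000030790, plus strand, GRCm38). In replicate 1 its level was 1091 CPM in lymphatic-like wells, against 15.9 CPM in artery-like, 79.6 CPM in capillary-like and 46.7 CPM in vein-like wells. In replicate 2 it was 211 CPM in lymphatic-like wells, against 1.70, 1.64 and 19.8 CPM in the artery-, capillary- and vein-like wells. The lymphatic-like level thus stood 13.7 to 68.5 times above the blood classes in replicate 1, and in replicate 2 it stood 10.6 times above the vein-like and 124 times above the artery-like level. Capillary-like wells of replicate 2 held 3 *Adm* reads and artery-like wells 23, so no fold is given for the former, and the other folds rest in part on single wells described below.

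The plates of each replicate gave the same order. In replicate 1 the lymphatic-like wells had 1280 CPM on plate A and 770 CPM on plate B, and the blood classes had 4.23 to 95.2 CPM on these plates. In replicate 2 the lymphatic-like wells had 390 CPM on plate A and 63.7 CPM on plate B, and the blood classes had 0.736 to 32.5 CPM. Within each replicate lymphatic-like and blood plates did not overlap, whereas across replicates plate B of replicate 2 fell below the capillary-like wells of plate B of replicate 1.

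Fitted over the sums, *Adm* was 33.2-fold higher in lymphatic-like wells than in the mean of the 3 blood classes (log2 difference 5.05 ± 0.60 SE, 95% interval 3.72 to 6.39; edgeR quasi-likelihood test, adjusted p = 0.00228, n = 2 sums per class). It was the only member of 5 that passed in this comparison, where 1.41% of the 16197 genes tested were called higher and 0.901% lower (2.31% in either direction). *Adm* also passed in all 12 alternative fits tested, with log2 differences from 4.08 to 7.16 and adjusted p from 1.29e-09 to 0.0304. The highest, 7.16, came from the 10 CPM limit on mural and immune genes, where replicate 2 alone gave a lymphatic-like sum, which was assumed to vary like the other classes. The mural reference wells had 38.4 and 38.2 CPM of *Adm* (replicate 1 and replicate 2), below the lymphatic-like wells of the same replicate. The mural markers summed to 372 and 63.0 CPM in lymphatic-like wells, the lowest of the 4 classes, and to 18813 and 15777 CPM in the reference.

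**Figure D1:**
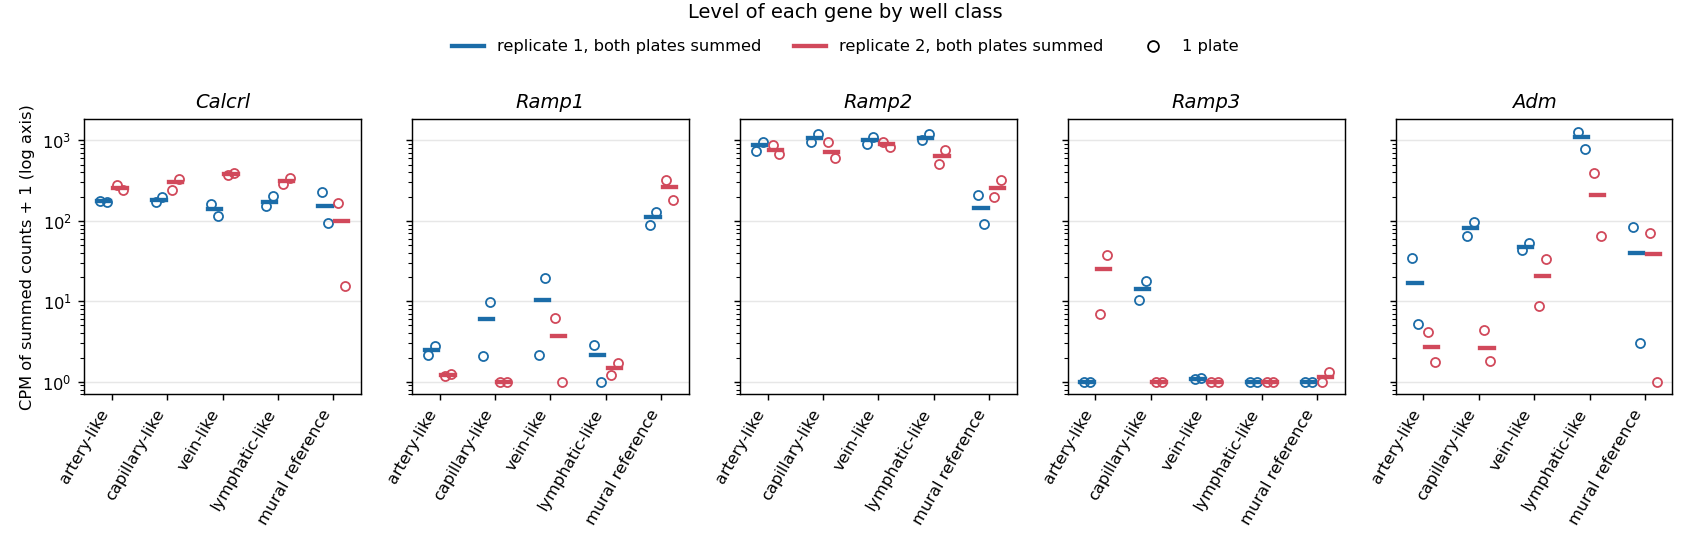
CPM of summed counts plus 1 (log axis) for each gene in the artery-, capillary-, vein- and lymphatic-like wells and the mural reference wells; horizontal lines are replicates with both plates summed and open circles are single plates. *Adm* is highest in lymphatic-like wells in both replicates (1091 and 211 CPM), *Ramp1* in mural reference wells (111 and 259 CPM), and *Calcrl* and *Ramp2* overlap between the 4 endothelial classes.

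The lymphatic-like level of *Adm* was carried by a minority of wells with many reads. In replicate 1, 9 of 19 lymphatic-like wells had 10 or more *Adm* reads (47.4%, exact 95% interval 24.4 to 71.1%), and these wells held from 128 to 815 reads. In replicate 2, 8 of 111 did (7.21%, 3.16 to 13.7%), and they held from 27 to 729 reads. The other lymphatic-like wells had 9 reads or fewer, 5 or fewer in replicate 1.

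Wells with 10 or more *Adm* reads made up a smaller share of the blood wells in both replicates. They were 32 of 289 wells in replicate 1 (11.1%, 7.70 to 15.3%), of which 19 were capillary-like, 12 vein-like and 1 artery-like. In replicate 2 they were 2 of 242 (0.826%, 0.10 to 2.95%), both vein-like. The highest *Adm* level of a well was 6293 and 5859 CPM in lymphatic-like wells (replicate 1 and replicate 2) and 1774 and 1310 CPM in blood wells. The mural reference had 1 such well among 8 and 1 among 38.

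Each lymphatic-like sum leaned on its top wells. The 5 highest wells held 78.0% of the *Adm* reads of the class in replicate 1 and 92.1% in replicate 2. Without the single highest well of each sum the lymphatic-like level was 813 and 143 CPM (replicate 1 and replicate 2), and the vein-like level of replicate 2 dropped from 19.8 to 4.05 CPM, since 1 well held 79.8% of its reads. Likewise the artery-like level of replicate 1 dropped from 15.9 to 3.90 CPM, and the mural reference from 38.4 and 38.2 to 1.84 and 0.598 CPM. At 20000 reads per well, *Adm* had a read in 52.6% and 12.1% of lymphatic-like wells, in 11.1% and 4.10% of artery-like, 21.2% and 6.25% of capillary-like and 16.8% and 3.23% of vein-like wells. The mural reference gave 12.5% (1 of 8 wells, interval 0.316 to 52.7%) and 2.63%. The interval of the reference (0.0666 to 13.8% in replicate 2) held the shares of all 4 classes in both replicates, those of lymphatic-like wells near its upper end, so no share could be set apart from it at this depth, and the capillary-like share of replicate 2 rested on 16 wells.

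**Figure D2:**
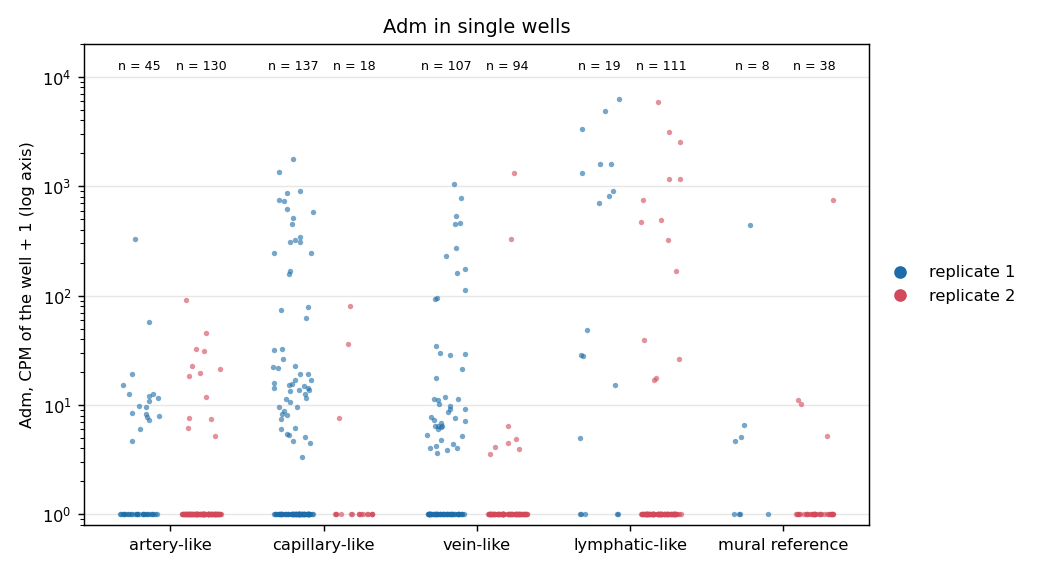
*Adm* in single wells, as CPM of the well plus 1 (log axis), by class and replicate; each point is 1 well, and points at 1 had no read. The highest wells are lymphatic-like in both replicates, at 6293 and 5859 CPM, above the highest blood wells at 1774 and 1310 CPM, and most wells of replicate 2 have no read.

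Among the blood classes *Adm* showed no called difference. It was 2.29 log2 units lower in artery-like than in capillary- and vein-like wells (SE 0.77, 95% interval -4.02 to -0.57, edgeR adjusted p = 1), with none of 16197 genes called and 423 genes at an unadjusted p under 0.05. Against vein-like wells alone the difference was -2.75 ± 0.86 SE (edgeR adjusted p = 1), and vein-like against artery- and capillary-like wells gave 1.83 ± 0.71 SE (edgeR adjusted p = 1), a direction that turned (-1.31) with a limit of 300 CPM on the mural and immune genes. In capillary-like against artery- and vein-like wells it was 0.46 ± 0.73 SE (edgeR adjusted p = 0.966), where 2 genes (0.0123%) were called, 0.00617% higher and 0.00617% lower. In the vein-like comparison 0.0123% were called. The mean capillary-like level of *Adm*, 40.6 CPM, was 172 CPM with a limit of 10 CPM on the mural and immune genes and 104 CPM with one of 300 CPM. The artery-like level was below the vein-like level in both replicates, but the capillary-like level was above it in replicate 1 and below it in replicate 2. Artery-like against vein-like wells alone gave 0 calls of 16197 and 411 genes at an unadjusted p under 0.05. DESeq2 called 62 and 59 genes in these artery-like comparisons, none of them a member.

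*Calcrl*, the receptor core, was present in every endothelial class at a level that did not separate them. It lies on the minus strand at chr2:84330626-84425411 (ENSMUSG00000059588, 16 exon blocks). In replicate 1 it had 174 CPM in artery-like, 181 CPM in capillary-like, 140 CPM in vein-like and 172 CPM in lymphatic-like wells. In replicate 2 these were 254, 303, 381 and 314 CPM. All 4 classes were higher in replicate 2, and the order of the classes changed: vein-like wells were the lowest in replicate 1 and the highest in replicate 2. In capillary-like wells of replicate 2, 1 well held 59.9% of the *Calcrl* reads, and without the highest well of each sum the capillary-like level was 173 CPM in replicate 1 and 142 CPM in replicate 2, so that only the other 3 classes stayed higher in replicate 2.

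As means over replicates *Calcrl* ran from 214 ± 56.7 CPM in artery-like through 242 ± 86.0 CPM in capillary-like and 243 ± 100.5 CPM in lymphatic-like to 261 ± 171 CPM in vein-like wells (SD, n = 2), and no neighbours in this order differed beyond their spread. The fitted differences were small in all 5 comparisons, from -0.20 to 0.18 on the log2 scale, with edgeR adjusted p from 0.975 to 1. Their 95% intervals were wide: that of lymphatic-like against blood wells ran from -0.82 to 0.94, and that of artery-like against vein-like wells from -1.23 to 0.95. With the clusters of the next higher resolution, artery-like wells stood 1.33 log2 units lower (edgeR adjusted p = 0.761).

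At 20000 reads per well *Calcrl* had a read in 38.5% to 67.7% of the wells of a class and replicate. Vein-like wells had the highest share in replicate 2, 67.7% (57.3 to 77.1%), above the 38.5% (29.9 to 47.8%) of artery-like and the 45.5% (35.4 to 55.8%) of lymphatic-like wells, and in replicate 1 the shares of all 4 classes lay between 51.1% and 63.2%. The mural reference had *Calcrl* in 50.0% and 18.4% of wells (replicate 1 and replicate 2) and at 153 and 97.5 CPM. The endothelial shares lay near that of the reference in replicate 1 and above it in replicate 2. The 8 reference wells of replicate 1 also held endothelial RNA, with 4609 CPM of capillary markers in sum, 259 CPM of *Gpihbp1* and 69.4 CPM of *Cdh5*, against 784, 1.42 and 10.4 CPM in replicate 2.

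*Ramp2*, the partner that gives *Calcrl* its adrenomedullin preference, had the most reads of the 5 over all wells (161492). It is on the plus strand at chr11:101246028-101259546 (ENSMUSG00000001240). In replicate 1 it had 865 CPM in artery-like, 1073 CPM in capillary-like, 1000 CPM in vein-like and 1072 CPM in lymphatic-like wells. In replicate 2 these were 757, 717, 901 and 637 CPM. Every class was lower in replicate 2 than in replicate 1, opposite to *Calcrl*, and the classes overlapped.

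Means over replicates ran from 811 ± 76.2 CPM in artery-like through 855 ± 308 CPM in lymphatic-like and 895 ± 252 CPM in capillary-like to 950 ± 69.7 CPM in vein-like wells (SD, n = 2). No neighbours in this order differed beyond their spread. The fitted log2 differences of *Ramp2* lay between -0.24 and 0.12 in the 5 comparisons (edgeR adjusted p from 0.975 to 1), and the interval of lymphatic-like against blood wells was -0.63 to 0.53. Over 12 alternative fits the *Ramp2* differences ranged from -0.42 to 0.38.

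*Ramp2* was higher in endothelial wells than in the reference in both replicates. At 20000 reads it had a read in 94.7% to 99.3% of the wells of each class in replicate 1 and in 76.8% to 93.8% in replicate 2, against 50.0% and 44.7% of mural reference wells, whose levels were 143 and 254 CPM. Its mean over all kept wells was 909 ± 166 CPM and in the reference 199 ± 79.0 CPM (SD, n = 2). This difference was not tested.

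Some of the *Ramp2* counts are uncertain. The gene shares 1103 exon bases on the same strand with *Vps25*, which had 34805 reads over all wells against 161492 for *Ramp2*, and how reads in shared bases were assigned is not stated. The authors removed duplicate reads, which can limit the count a well reaches. The highest *Ramp2* count was 820, in a well of the unnamed cluster, and 665 in the named classes. A 50-base read has 1129 start positions on each strand of the 1178-base transcript. The part of this limit in the counts was not tested. With the wells of a replicate cut by depth into 3 sets of like size, the level was 1039, 1065 and 1001 CPM from the shallowest to the deepest set in replicate 1, and 442, 773 and 870 CPM in replicate 2. *Calcrl* had 144, 215 and 128 CPM in these sets of replicate 1 and 117, 259 and 354 CPM in those of replicate 2. Vein-like wells of replicate 2, the highest for *Calcrl*, had a median of 225598 reads, against 91005 in artery-like and 66224 in lymphatic-like wells, and the part of depth in that order was not tested.

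**Figure D3:**
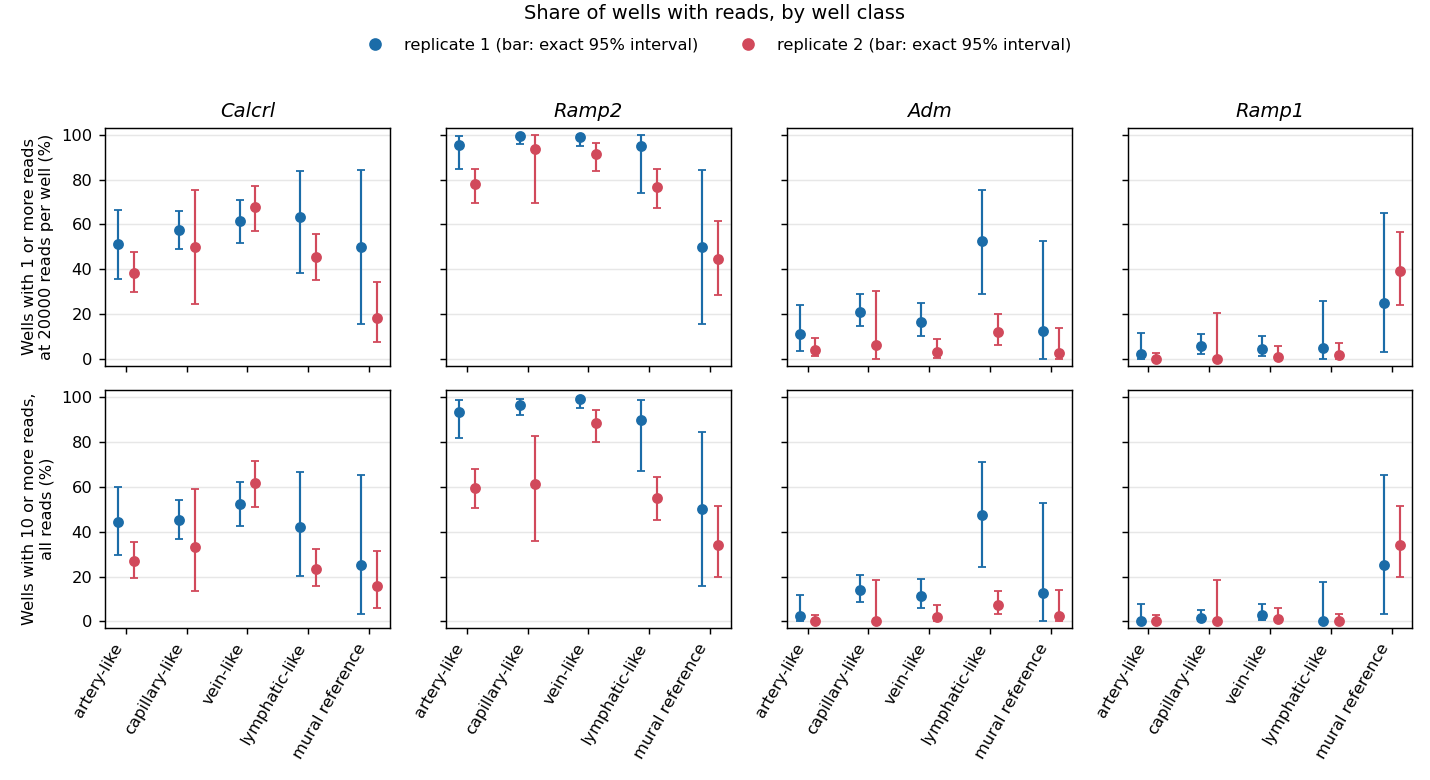
Share of wells with at least 1 read at 20000 reads per well (top, %) and with 10 or more reads (bottom, %) for *Calcrl*, *Ramp2*, *Adm* and *Ramp1* in each class; points are replicates and bars exact 95% binomial intervals. In the top row *Ramp2* is near 100% in the endothelial classes of replicate 1, but not in the mural reference. *Adm* is highest in lymphatic-like wells (47.4% and 7.21% with 10 or more reads) and *Ramp1* in mural reference wells (2 of 8 and 13 of 38 wells with 10 or more reads).

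*Ramp1*, which makes *Calcrl* a CGRP receptor, was low in the endothelial classes and higher in the mural reference wells. It is on the plus strand at chr1:91179822-91225196 (ENSMUSG00000034353). In replicate 1 its level was 1.503 CPM in artery-like, 5.05 CPM in capillary-like, 9.30 CPM in vein-like and 1.18 CPM in lymphatic-like wells. In replicate 2 it was 0.221, 0, 2.67 and 0.477 CPM, and the 0 of capillary-like wells allows up to 1.64 CPM. The mural reference had 111 and 259 CPM, above every endothelial class, and its plates (88.9 to 323 CPM) were all above the plates of the 4 named classes, the highest of which was 18.7 CPM. The unnamed cluster of replicate 2 also held 832 *Ramp1* reads, in 7 wells, and reached 240 CPM on plate A. The reference wells were chosen by *Pdgfrb* and *Kcnj8* and not by *Ramp1*. They also held fibroblast markers, 1972 and 3938 CPM in sum, against 25.2 to 945 CPM in the 4 classes. In the unnamed cluster *Ramp1* was 2.24 CPM in replicate 1 and 145 CPM in replicate 2, where fibroblast markers summed to 299 and 2642 CPM and mural markers to 2017 and 2198 CPM. The part of either cell type in the *Ramp1* level was not tested.

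Few endothelial wells held more than single reads of *Ramp1*. Of the 289 and 242 blood wells, 5 and 1 had 10 or more reads, and none of the 19 and 111 lymphatic-like wells did. All 58 *Ramp1* reads of vein-like wells in replicate 2 came from 1 well. The mural reference had 2 of 8 such wells in replicate 1 and 13 of 38 (34.2%, 19.6 to 51.4%) in replicate 2. *Ramp1* passed in none of the 5 comparisons (edgeR adjusted p from 0.919 to 1), and with so few reads no fold is given.

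Over all wells within the limits on reads and genes, the share of wells with *Ramp1* was highest where the mural genes were highest. In replicate 1, 5 of 351 wells with under 100 CPM of *Pdgfrb* and *Kcnj8* had 10 or more *Ramp1* reads (1.42%), as did 5 of 52 wells with 100 to 300 CPM (9.62%) and 117 of 361 wells with 300 CPM or more (32.4%). In replicate 2 these were 3 of 180 wells (1.67%), 1 of 55 (1.82%) and 19 of 67 (28.4%), and 2 of 454 wells with no read of either gene (0.441%). The wells of replicate 2 with 100 to 300 CPM had a median of 8622 reads, against 85723 below and 135325 above them, and their *Ramp1* level was 107 CPM, between 15.5 and 243 CPM. For *Calcrl* the share was 44.7%, 15.4% and 45.7% in these sets of replicate 1 and 26.7%, 1.82% and 14.9% in those of replicate 2. For *Ramp2*, 90.9% of the wells of replicate 1 with 300 CPM or more had 10 or more reads, against 94.6% below 100 CPM. In replicate 2 the *Ramp2* share was 28.4% against 51.7%. All 765 wells of replicate 1 had reads of at least 2 endothelial genes, and the part of doublets was not tested.

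**Figure D4:**
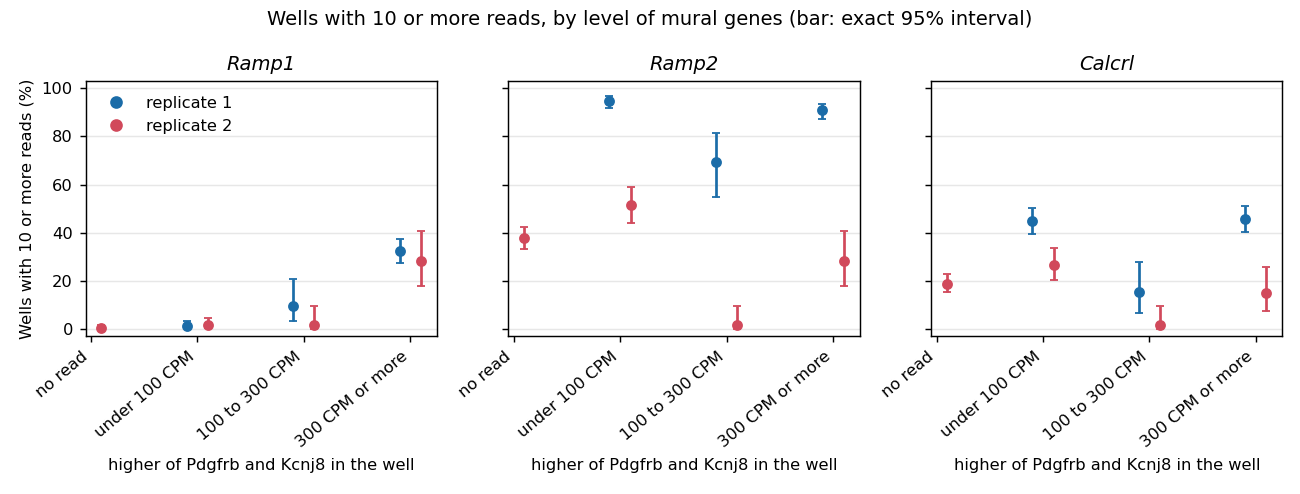
Share of wells with 10 or more reads (%) of *Ramp1*, *Ramp2* and *Calcrl*, by the higher CPM of *Pdgfrb* and *Kcnj8* in the well, over all wells within the limits on reads and genes; points are replicates, bars exact 95% binomial intervals, and sets under 5 wells are not drawn. *Ramp1* is highest at 300 CPM or more (32.4% and 28.4%).

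*Ramp3*, the other adrenomedullin partner, was detected in a handful of wells. It is on the plus strand at chr11:6658521-6677475 (ENSMUSG00000041046) and shares exon bases with the opposite-strand pseudogene *Gm11978*. Artery-like wells of replicate 2 had 327 reads (24.1 CPM), 295 of them in 1 well and 32 in another. Capillary-like wells of replicate 1 had 273 reads (13.1 CPM) in 9 wells, 5 of which had 10 or more. Vein-like wells had 2 reads in replicate 1 and none in replicate 2, and artery-like wells of replicate 1 and capillary-like wells of replicate 2 had none. No class had *Ramp3* reads in 10-read wells in both replicates.

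The lymphatic-like wells had no *Ramp3* read in either replicate. In replicate 1 this allows up to 1.18 CPM and a share of wells with a read of up to 15.8%, and in replicate 2 up to 0.286 CPM and 2.70%. *Ramp3* passed in no comparison (edgeR adjusted p from 0.584 to 1), and since its sums rested on so few wells no fold is given. These floors and the binomial intervals cover counting error only.

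Per kilobase of transcript, *Ramp2* stood above *Calcrl* in all classes. Over all kept wells, the unnamed cluster included, *Ramp2* had 872 and 672 CPM per kb (replicate 1 and replicate 2), *Calcrl* 32.2 and 60.8, *Adm* 72.2 and 35.6, *Ramp1* 2.50 and 7.15 and *Ramp3* 4.87 and 4.95. The ratio of *Ramp2* to *Calcrl* was 20.6 in artery-like, 24.5 in capillary-like, 29.7 in vein-like and 25.8 in lymphatic-like wells of replicate 1. In replicate 2 it was 12.3, 9.81, 9.79 and 8.40, so the replicates differed more than the classes. With all annotated exon bases in place of the transcript (3301 against 1178 for *Ramp2*, 4882 in both cases for *Calcrl*) all these ratios would be lower by the same factor. In lymphatic-like wells of replicate 1, *Adm* at 785 CPM per kb came close to *Ramp2* at 910, whereas in replicate 2 it was 152 against 541. These values use transcripts of 1178 bases for *Ramp2* and 1390 bases for *Adm*, and with all annotated exon bases (3301 and 1619) the order of *Adm* and *Ramp2* in lymphatic-like wells of replicate 1 turns.

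*Calcrl* was found with *Ramp2* in more wells than with the other RAMPs. At 20000 reads per well and over all kept wells, the unnamed cluster included, *Calcrl* and *Ramp2* shared 190 of 350 wells in replicate 1 and 146 of 386 in replicate 2. *Ramp2* without *Calcrl* was found in 152 and 154 wells, and *Calcrl* without *Ramp2* in 1 and 29. *Calcrl* and *Ramp1* shared 12 and 2 wells, and *Calcrl* and *Ramp3* 4 and 1.

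In replicate 1 *Ramp2* had a read in nearly every well, which fixes the joint share near that of *Calcrl*. At 20000 reads per well, 54.3% of kept wells of replicate 1 had both (exact 95% interval 48.9 to 59.6%), against 53.3% from the product of the shares. In replicate 2, where *Ramp2* was less complete, they were 37.8% (33.0 to 42.9%) against 35.2%. With all reads and unequal depths the share in replicate 2 was 47.0% (42.6 to 51.5%) against 42.3%, which lay below the interval. At 20000 reads the product lay, within each of the 4 classes, inside the interval of the observed share in both replicates. Across wells Pearson's r of log2(CPM + 1) at this depth was 0.21 over 350 wells and 0.16 over 386 wells, a description across wells that share plates and depth.

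*Adm* and its receptor core were compared in the same way. Over all kept wells at 20000 reads, the unnamed cluster included, *Adm* and *Calcrl* shared 10.3% of wells in replicate 1 (product 10.6%). In replicate 2 they shared 2.07% (product 3.29%). In lymphatic-like wells they were together in 8 of 19 wells (42.1%, product 33.2%) and in 4 of 99 (4.04%, product 5.51%).

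Likeness to each member was measured across kept wells, the unnamed cluster included. The most alike genes were sought among 2233 genes with a read in 20% or more of wells in both replicates. For *Calcrl* they were *Ramp2*, *Arpc3*, *Lrg1*, *Puf60* and *Ubl3*, with the lower of the 2 replicate values of r from 0.15 to 0.16. For *Ramp2* they included *Vps25* (0.28), *Ppia*, *Selenok* and *H2-D1*, the last at 0.21. *Vps25* shares exon bases with *Ramp2*, whose part in its rank was not tested, and all these correlations are weak. *Ramp1*, *Ramp3* and *Adm* fell below the share limit.

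**Figure D5:**
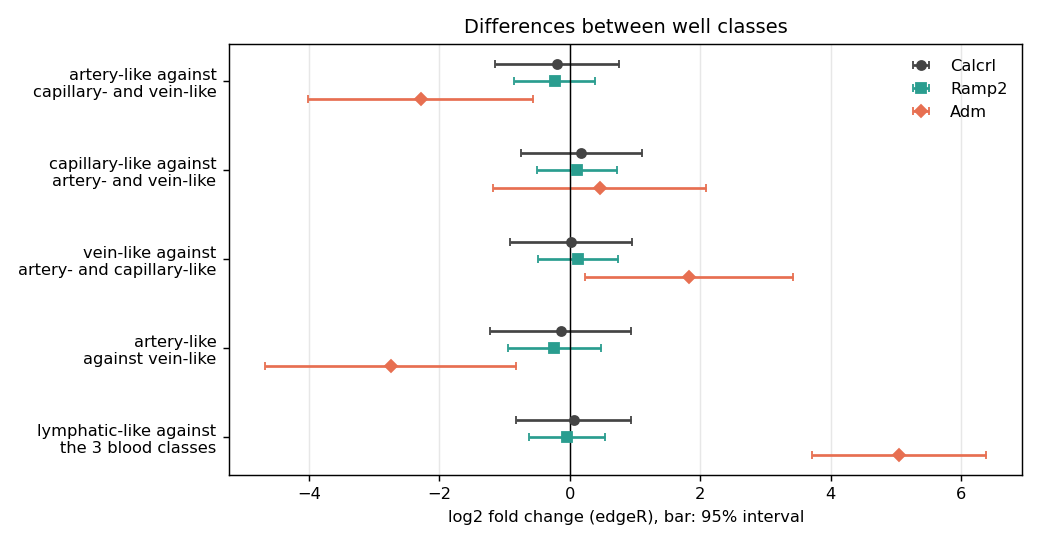
Fitted log2 differences between well classes for *Calcrl*, *Ramp2* and *Adm* in the 5 comparisons (edgeR); bars are 95% intervals without adjustment for the number of genes tested. *Adm* in lymphatic-like against blood wells (5.05, 3.72 to 6.39) passed the threshold, and *Calcrl* and *Ramp2* lie near 0 throughout.

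The wider pathway was described through 39 further genes, of which 33 were tested. None passed in the 4 comparisons among blood classes, and 1 of 33 passed in lymphatic-like against blood wells, against 374 of 16197 genes (2.31%). That gene was *Epas1*, which encodes HIF-2alpha, a hypoxia-inducible factor of ECs. It had 1323, 1323 and 762 CPM in artery-, capillary- and vein-like wells of replicate 1 and 205 CPM in lymphatic-like wells, and 941, 739 and 810 CPM against 105 CPM in replicate 2. Lymphatic-like wells were below all blood classes in both replicates, and *Epas1* was lower by 2.67 ± 0.35 SE on the log2 scale (fitted value -2.67, edgeR adjusted p = 0.0038). The median log2 difference was -0.06 over the 33 genes and -0.03 over all genes. *Hif1a* had a difference of -1.12 ± 0.39 SE (edgeR adjusted p = 0.269), and 9 of the 33 genes had an unadjusted p under 0.05, as did 1921 of all 16197.

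The other ligands were near absent from the kept wells, the unnamed cluster included. *Adm2*, *Calcb* and *Iapp* had no read, and *Calca*, which encodes CGRP, reached 0.02 CPM per kb in replicate 2. *Ackr3*, a scavenger receptor that binds adrenomedullin, had 47.7 and 40.9 CPM per kb (replicate 1 and replicate 2), and *Crcp*, a component that couples the CGRP receptor, had 37.2 and 46.3. *Calcr*, the calcitonin receptor, had 0 and 0.25 CPM per kb.

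The enzymes and transducers named here are the highest per kilobase of their role. *Pam*, which amidates adrenomedullin, had 53.9 and 97.3 CPM per kb, and *Ece1*, a peptidase, had 159 and 170. *Ide*, another peptidase, had 7.07 and 10.6. *Gnas*, the Gs alpha subunit, was the highest transducer with 260 and 253 CPM per kb, followed by *Prkar1a*, a regulatory subunit of protein kinase A (137 and 108), and *Adcy4*, an adenylate cyclase (72.3 and 61.5).

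Downstream, *Rap1b* had 93.1 and 82.6 CPM per kb, *Rap1a* 70.4 and 67.9, and *Rapgef3*, which encodes Epac1, 38.9 and 21.0. Of the kinases and arrestins that switch receptors off, *Arrb1* had 19.1 and 23.9, *Grk2* 13.7 and 19.7 and *Grk6* 12.4 and 6.96 CPM per kb. *Epas1* had 192 and 125, *Hif1a* 80.9 and 124 and *Arnt*, their shared partner, 17.9 and 10.9. *Nos3*, the endothelial nitric oxide synthase, had 45.0 and 49.8 CPM per kb.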

How the data were processed

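Per the labels and the study's methods, the authors sorted single cells, made Smart-seq2 libraries read as single 50-base reads, aligned them to mm10 (GRCm38) with TopHat2 2.1.1, removed duplicates with SAMtools 0.1.18 and deposited raw counts per gene and well from featureCounts of Subread 1.4.6-p5. The annotation release is not given in the sources used here. There were no molecular identifiers. Plates held 74739095 and 63091443 gene reads in replicate 1 and 31864976 and 35546726 in replicate 2. The 92 spike-in rows (0.971% of reads) were left out, and 46005 identifiers matched GENCODE vM21.

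Wells had at least 600 reads and 500 to 8000 genes. Doublets were not called. Size factors came from scran 1.30.0, and 15 components were clustered with leidenalg 0.10.2 at resolution 0.4. Class names rest on markers higher by 1.25 times in both replicates. Counts were summed per replicate and class (2 sums a class), and the quasi-likelihood test of edgeR 4.0.16, after TMM scaling, was run on genes with 10 counts in 2 sums, with a term for replicate, 3 degrees of freedom left and a Benjamini-Hochberg threshold of 0.05. Replicate was a block because all classes of a replicate were sorted onto the same plates, and deviations of such sums correlated at 0.0364 to 0.136 over 6 pairs. The fit was also run on simulated data, whose outcome is not reported here. Lengths per kilobase are those of the longest principal transcript. DESeq2 1.42.0 and limma 3.58.1 served as alternatives.

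The text names the 5 members, pathway genes past the threshold, the 3 highest per kilobase in each role group and the 5 genes most like a member, of which 1 is not reported here. Members and lists were chosen with earlier results of these data known.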

Additional observations from a re-analysis of the deposited data

Results flagged for a closer look

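For 3 results 1 of the 4 plates lay far above the other 3 by Dixon's test, of 19 sets of 4 plates tested. Chance marks about 5% of sets of independent, normally spread values. Plates of the same replicate may not be independent and some sums rest on single wells, so the rate for these sets is not known. *Adm* in artery-like wells was 33.8 CPM on plate A of replicate 1, where 1 well held 81 reads. *Ramp3* in artery-like wells was 36.2 CPM on plate B of replicate 2, from the well with 295 reads. *Ramp1* in capillary-like wells was 8.94 CPM on plate B of replicate 1.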

How the results depend on the processing

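*Adm* in lymphatic-like against blood wells passed in 12 of 12 alternatives (4.08 to 7.16), with 4.89 (edgeR adjusted p = 0.0258) with no replicate block, and the leave-one-out values, which have no test, were 4.88 to 5.76. No alternative changed how many members passed. Counts of all genes called moved more. In the artery-like comparison (0) they were 62 by DESeq2, 3 with no low-count filter and 16 with a 10 CPM limit on wells. In the capillary-like comparison (2) they were 158, 26 and 35 under these settings, 0 with no replicate block, by limma, by marker scores and at the next higher resolution, 1 with a 300 CPM limit, and 4 on plate A and thinned to 20000 reads. In the vein-like comparison (2) they were 88, 37 and 56, 0 by limma, 1 on plate B and with a 300 CPM limit, 12 by marker scores and 15 thinned. For artery-like against vein-like wells (0) they were 59, 17 and 32, and 1 by marker scores and thinned. In the lymphatic-like comparison (374) they were 1512, 722 and 187, 185 on plate B, 240 by marker scores and 567 thinned. The replicate block changed no other count by over 1.5 times.

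Of 210 log2 differences, 175 stayed, 8 moved and 27 changed sign, all of the last uncalled. *Calcrl* changed sign in the artery-like comparison on plate A (0.084), in the capillary-like one by limma (-0.25), on plate A (-0.26) and thinned (-0.16), in the vein-like one by DESeq2 size factors and Wald test (-0.050 each), on plate B (-0.12) and with a 10 CPM limit (-0.039), and in the lymphatic-like one with no filter (-0.0044), by limma (-0.26), on plate A (-0.043), by marker scores (-0.11) and thinned (-0.081). *Ramp2* did so in the capillary-like comparison by limma (-0.14), marker scores (-0.086) and thinning (-0.014), and in the lymphatic-like one by DESeq2 size factors and Wald test (0.012 each) and on plate B (0.25). *Adm* did so in the vein-like comparison with a 300 CPM limit (-1.31). Leaving out replicate 1 or replicate 2 gave *Calcrl* -0.59 and 0.17 in the artery-like comparison, 0.43 and -0.37 in the vein-like one, -0.68 and 0.36 in artery-like against vein-like wells and -0.0038 and 0.14 in the lymphatic-like one. It gave *Ramp2* -0.012 and 0.19 in the capillary-like and -0.34 and 0.21 in the lymphatic-like comparison, and *Adm* -1.63 and 1.53 in the capillary-like one. The causes were not tested.

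With 2 replicates and 3 residual degrees of freedom, changes of *Calcrl* or *Ramp2* within the intervals given could not be seen. The 10 CPM limit kept 19 wells of replicate 1 and left artery- and lymphatic-like sums in replicate 2 alone, each lone sum being assumed to vary like the other classes. The mean *Adm* level of capillary-like wells was 40.6 CPM, 172 CPM with that limit and 104 CPM with a 300 CPM limit.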
